A study of Mus musculus with 6 samples.

Results

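The 52 genes described here encode the DNA replication machinery and other proteins of S phase, the part of the cell cycle in which the genome is copied. They were listed by function with earlier results of these data known, as were the further gene lists below. Counts over a list are therefore descriptions and not an independent test. Each gene was found by its symbol in the deposited expression table, which holds 47086 loci. Cdc45 has 2 loci there, of which the rule takes the more abundant, and both were listed at 0. The table comes from RNA-seq of total RNA from primary hippocampal cultures of newborn wild type (WT) and Fmr1 knockout (Fmr1 KO) mice at 14 days in vitro, with 3 libraries per genotype. Both genotypes carry the strain label C57BL/6. The mice of the study are described in general as male Fmr1 KO animals and WT littermates bred from heterozygous mothers, and the sources used here do not say which animals or litters stand behind each culture or library. The study as a whole used several culture batches and litters, but nothing ties them to the libraries, so the p-values measure only the spread between these libraries. Fmr1 encodes the RNA-binding protein FMRP, whose loss causes fragile X syndrome. Its transcript had an FPKM (the number of sequenced fragments, scaled to transcript length and library size) of 19.0 to 19.7 in WT and 18.5 to 23.1 in Fmr1 KO, so its level does not check the genotype labels.

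Before a cell can copy its DNA, the origin recognition complex with Cdc6 and Cdt1 loads rings of the MCM helicase onto replication origins. The rings are activated with Cdc45 and the GINS complex, after which primase and the polymerases alpha, delta and epsilon copy both strands with the help of the clamp PCNA and its loader RFC. E2F transcription factors switch on many of these genes as cells enter S phase. Mature neurons have left the cell cycle, while astrocytes and oligodendrocyte precursors in primary culture can divide, and some replication proteins also serve DNA repair in cells that no longer divide.

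The genes were compared as log2(FPKM + 0.1) with limma over the 13195 loci with a mean of at least 1 FPKM in either genotype, and p-values were adjusted over all of these loci by the Benjamini-Hochberg method. A log2 difference on this scale is Fmr1 KO minus WT and is slightly too small for weakly expressed genes. Of the 52 genes, 48 reached the minimum, and each of them had a mean of at least 1 FPKM in both genotypes. With the threshold at an unadjusted p of 0.05, Fmr1 KO was higher for 9 of the 48 genes, namely Mcm2, Mcm5, Mcm6, Mcm7, Cdc6, Prim1, Lig1, Rrm2 and Chaf1b. Over all tested loci, 6.99% were higher by the same rule. None of the 48 was lower by this rule, where 7.77% of all loci were. No member was below an adjusted p of 0.05, which 0.265% of all loci were, and the lowest adjusted p was 0.143, for Mcm7.

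Every Fmr1 KO library was above every WT library in 11 of the 48 genes, against 10.8% of all tested loci. Every Fmr1 KO library was below every WT library in 1 gene, Ung, against 10.3% of all loci. The log2 difference was above 0 in 32 genes and below 0 in 16, with a median of 0.07. For all tested loci the median was 0.005, and 51.7% were above 0. The count of 9 rested in part on Fmr1 KO replicate 3: without that library 2 members, Mcm5 and Mcm7, were higher at an unadjusted p below 0.05, and so were 4.77% of all loci. When the libraries were rescaled to equal totals without the noncoding RNA Bc1, only Chaf1b remained below that threshold, and 1.07% of all loci were higher. The median log2 difference was then 0.04 for the members and -0.03 for all tested loci. The members' median standard error was 0.18, in place of 0.10 in the main fit.

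**Figure D1:**
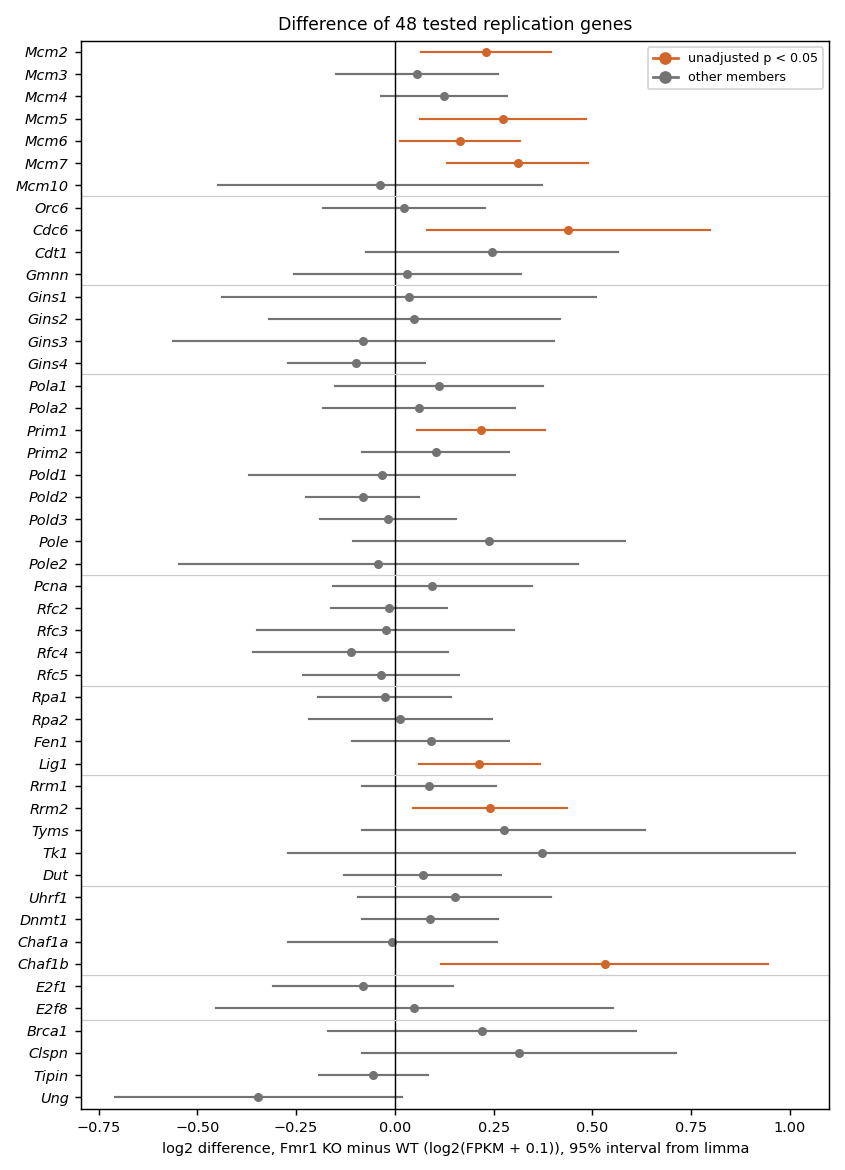
Log2 difference (Fmr1 KO minus WT, on log2(FPKM + 0.1)) of the 48 tested replication genes, grouped by role, with the 95% interval from limma; orange marks an unadjusted p below 0.05. The 9 orange genes lie between 0.16 and 0.53, and the intervals of the other 39 genes include 0.

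Most of these transcripts were of low abundance. The mean FPKM over the 6 libraries had a median of 4.75 over the 52 genes. It was below 1 in 4 genes, from 1 to below 5 in 23, from 5 to below 10 in 14 and at 10 or more in 11. Rpa1 had the highest mean, 19.8 FPKM. The median standard error of the log2 difference was 0.10 for the members and 0.08 for all tested loci.

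**Figure D2:**
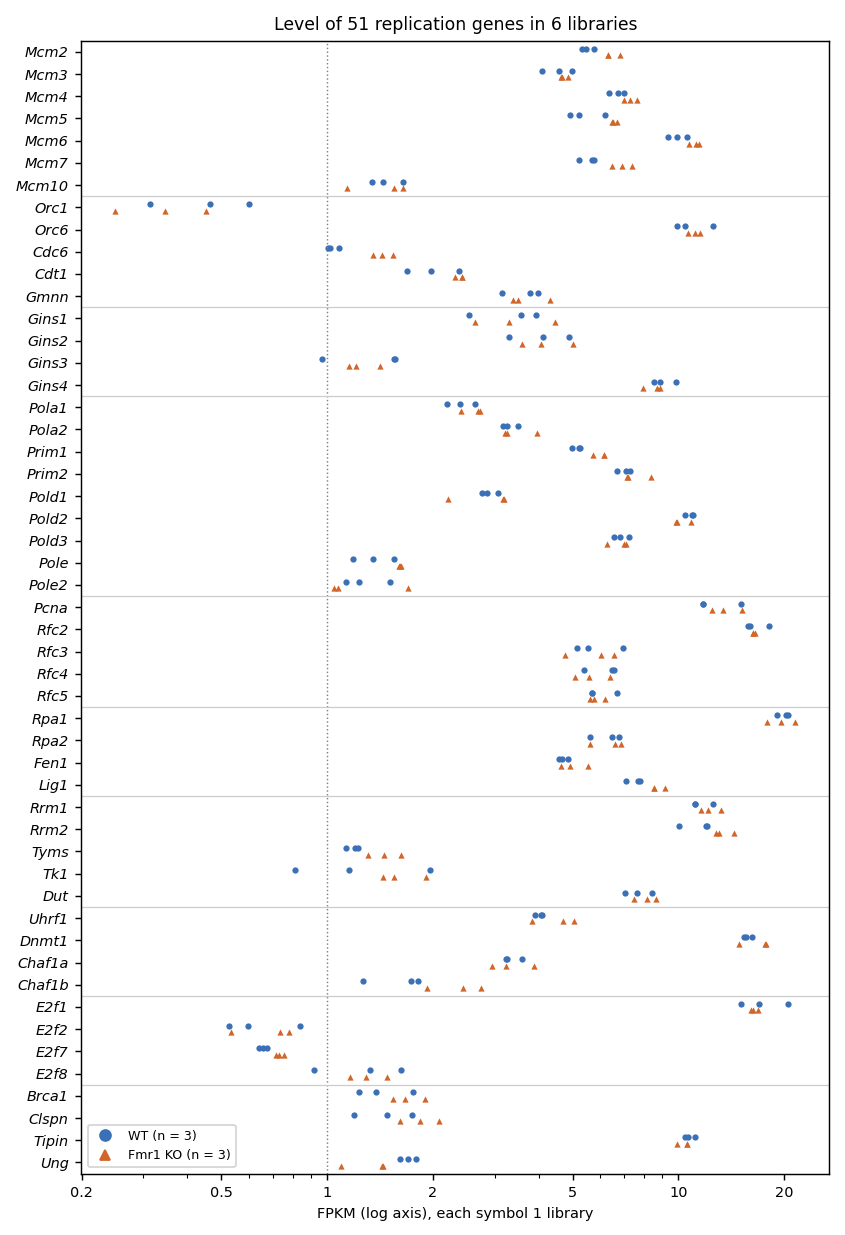
FPKM of 51 replication genes in each of the 6 libraries (log axis, circles WT, triangles Fmr1 KO, dotted line at 1 FPKM), grouped by role; Cdc45, listed at 0 throughout, is not drawn. The symbols of the genotypes are mixed for most genes and stand apart for 12 tested genes (11 with Fmr1 KO higher, and Ung) and for E2f7, below the line.

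The MCM helicase is a ring of the proteins MCM2 to MCM7, which unwinds DNA ahead of the fork. All 6 genes had a log2 difference above 0, as did 51.7% of all tested loci. At an unadjusted p below 0.05, 4 of the 6 were higher, where 6.99% of all loci were. None of these 4 stayed below that threshold after rescaling without Bc1. Mcm7 (chromosome 5, 138164583 to 138172111 in RefSeq's GRCm38.p6) had an FPKM of 5.68, 5.22 and 5.75 in WT and of 7.39, 6.46 and 6.89 in Fmr1 KO. Every Fmr1 KO library lay above every WT library. The log2 difference was 0.31 with a 95% interval of 0.13 to 0.49, or 1.24-fold (adjusted p = 0.143 in limma), and it was the single member gene that stayed at an unadjusted p below 0.05 in each of the 6 fits that left out 1 library. Of its exonic bases in GENCODE M21, 8.7% are shared with Ap4m1 and Cops6 on the opposite strand.

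Mcm2 (chromosome 6, 88883474 to 88898780) had an FPKM of 5.44, 5.31 and 5.77 in WT and of 6.29, 6.30 and 6.83 in Fmr1 KO. The libraries did not overlap, and the log2 difference was 0.23 with an interval of 0.07 to 0.39. Mcm5 (chromosome 8, 75109468 to 75128439) had 4.90, 5.20 and 6.18 FPKM in WT and 6.496, 6.47 and 6.68 in Fmr1 KO. WT replicate 3 lay closer to the Fmr1 KO libraries than to the other WT libraries, and the log2 difference of 0.27 was 0.37 without WT replicate 3. It lost the unadjusted threshold without WT replicate 1 (0.21) or WT replicate 2 (0.25). Mcm6 (chromosome 1, 128331575 to 128359705) had 9.33, 9.91 and 10.6 FPKM in WT and 10.7, 11.5 and 11.2 in Fmr1 KO. The gap between the highest WT and the lowest Fmr1 KO library was small beside the spread within WT, and the log2 difference was 0.16 with an interval of 0.01 to 0.32. Of the 6 fits that left out 1 library, Mcm6 passed the unadjusted threshold in those without WT replicate 3 and without Fmr1 KO replicate 1. The adjusted p was 0.213 for Mcm2, 0.236 for Mcm5 and 0.306 for Mcm6 in limma.

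For the remaining subunits the libraries overlapped. Mcm4 had 6.33, 7.01 and 6.73 FPKM in WT and 7.28, 7.01 and 7.62 in Fmr1 KO, a log2 difference of 0.12 with an interval of -0.04 to 0.28. Mcm3 had 4.58, 4.08 and 4.98 FPKM in WT and 4.63, 4.85 and 4.67 in Fmr1 KO, a log2 difference of 0.06 with an interval of -0.15 to 0.26. Within each of the 6 libraries Mcm6 had the highest FPKM of the ring subunits and Mcm3 the lowest. Mcm10, which helps to start the loaded helicase and is not part of the ring, had 1.64, 1.34 and 1.44 FPKM in WT and 1.14, 1.55 and 1.65 in Fmr1 KO, and its log2 difference was -0.04. The summed FPKM of the 6 ring subunits was 36.3, 36.7 and 40.0 in WT, against 42.8, 42.6 and 43.9 in Fmr1 KO, a description of the same values with no test of its own.

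**Figure D3:**
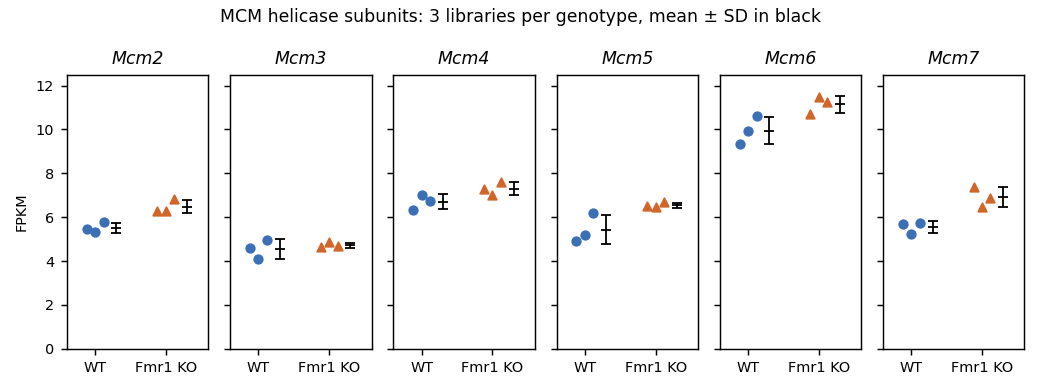
FPKM of the 6 subunits of the MCM ring in the 3 WT (circles) and 3 Fmr1 KO (triangles) libraries, with mean ± SD in black on a linear axis from 0. The genotypes stand apart for Mcm2, Mcm5, Mcm6 and Mcm7 and overlap for Mcm3 and Mcm4, and Mcm6 is highest in every library.

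E2F factors bind short GC-rich sites in the promoters of many MCM and licensing genes. The 250 bases before each annotated start in RefSeq's GRCm38.p6 promoter table were searched on both strands for TTTGGCGC, TTTCGCGC, TTTCCCGC and TTTGCCGC, and overlapping matches were kept. A window was found for 43 of the 52 genes, and 11 of these 43 (25.6%) held a match in at least 1 window, against 583 of 27025 genes in the table (2.16%). Among the 9 genes at an unadjusted p below 0.05, 4 held a match (Cdc6, Mcm5, Mcm6 and Mcm7), and 7 of the 34 other members with a window did. These shares were not tested against each other, and the 27025 genes include those not expressed here. Many replication genes are E2F targets, so a higher share among the members was likely before the search. A match describes the letters and does not show that a factor binds there. Cdc6 and Mcm7 held 1 match each, which overlaps an annotated exon or the gene's own span, so their stretches are not shown. The matches of Mcm5 and Mcm6, the other 2 of the 4 higher genes with a match, lie outside both. Their stretches are shown (Mcm5, chr8:75109259-75109467, plus strand, and Mcm6, chr1:128359706-128359955, minus strand). They run 5′ to 3′ up to the base before the gene's span in RefSeq, hold no exon of GENCODE M21, and have the matches in capitals. In Mcm5 and in the distal pair of Mcm6, matches on opposite strands overlap.
Mcm5: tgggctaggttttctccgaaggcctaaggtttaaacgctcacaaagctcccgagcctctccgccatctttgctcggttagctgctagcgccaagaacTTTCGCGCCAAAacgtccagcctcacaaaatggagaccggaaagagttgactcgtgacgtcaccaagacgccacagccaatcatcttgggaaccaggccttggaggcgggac
Mcm6: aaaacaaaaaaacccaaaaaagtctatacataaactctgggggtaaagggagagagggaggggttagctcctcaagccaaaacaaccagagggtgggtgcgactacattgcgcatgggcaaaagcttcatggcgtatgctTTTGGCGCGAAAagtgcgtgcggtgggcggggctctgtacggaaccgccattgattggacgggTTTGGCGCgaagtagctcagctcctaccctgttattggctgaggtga

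Of the origin recognition and licensing genes, Cdc6 differed most. Cdc6 (chromosome 11, 98907709 to 98923942), which loads the MCM ring, had an FPKM of 1.01, 1.02 and 1.08 in WT and of 1.54, 1.35 and 1.43 in Fmr1 KO. The 3 WT libraries lay close together and below every Fmr1 KO library. The log2 difference was 0.44 with an interval of 0.08 to 0.80, or 1.36-fold (adjusted p = 0.259 in limma). Without Fmr1 KO replicate 1 (0.39) or Fmr1 KO replicate 3 (0.44) it was not at an unadjusted p below 0.05. Its partner Cdt1 had 2.38, 1.97 and 1.69 FPKM in WT and 2.32, 2.42 and 2.42 in Fmr1 KO, where WT replicate 1 overlapped the Fmr1 KO libraries, and the log2 difference was 0.25 with an interval of -0.07 to 0.56. Geminin (Gmnn), the inhibitor of Cdt1, had 3.15 to 3.98 FPKM in WT and 3.39 to 4.31 in Fmr1 KO, a log2 difference of 0.03. Orc6, a subunit of the origin recognition complex, was the most abundant of these genes at 12.6, 9.90 and 10.4 FPKM in WT and 11.5, 10.6 and 11.2 in Fmr1 KO, and its log2 difference was 0.02. The largest subunit, Orc1, was below the minimum, at 0.601, 0.464 and 0.314 FPKM in WT and 0.2497, 0.452 and 0.347 in Fmr1 KO.

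Cdc45, which joins the MCM ring and GINS in the active helicase, was listed at 0 FPKM in all 6 libraries. A listed 0 in this table need not mean that the transcript is absent. Cdc45 has a locus on chromosome 16 and another on a scaffold outside the chromosomes, and of 982 protein-coding symbols with loci of both kinds, 590 (60.1%) were listed at 0 in every library. Of 19997 such symbols with chromosome loci only, 3967 (19.8%) were. Kif11, a motor protein of the mitotic spindle, and Pold4, a subunit of polymerase delta, also had 2 loci and were listed at 0 throughout.

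The 4 GINS genes, whose products tie the helicase to Cdc45 and to polymerase epsilon, did not separate the genotypes. Gins4 had 8.55, 9.82 and 8.87 FPKM in WT and 8.66, 7.91 and 8.85 in Fmr1 KO, and Gins3 had 1.55, 0.970 and 1.56 FPKM in WT and 1.15, 1.41 and 1.21 in Fmr1 KO. Their log2 differences were -0.10 and -0.08. Gins4 had the highest and Gins3 the lowest FPKM of the 4 in each library. Gins1 had 2.54 to 3.92 FPKM in WT and 2.63 to 4.44 in Fmr1 KO, and its locus also carries the predicted gene Gm20550. Gins2 had 3.28 to 4.88 FPKM in WT and 3.59 to 5.01 in Fmr1 KO. In GENCODE M21, 67.3% of its exonic bases are shared with exons of Gse1 on the opposite strand, and whether reads were counted by strand is not given.

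Among the polymerase and primase genes, Prim1 alone was at an unadjusted p below 0.05, and its libraries and those of Pole did not overlap. Prim1 (chromosome 10, 128015215 to 128030030) encodes the catalytic subunit of primase, which lays down the RNA primers, and had 5.25, 5.22 and 4.97 FPKM in WT and 5.71, 6.15 and 6.15 in Fmr1 KO. The libraries did not overlap, and the log2 difference was 0.22 with an interval of 0.05 to 0.38 (adjusted p = 0.225 in limma). Without Fmr1 KO replicate 2 (0.20) or Fmr1 KO replicate 3 (0.20) it lost the unadjusted threshold. The other primase subunit, Prim2, had 7.08, 6.67 and 7.29 FPKM in WT and 8.35, 7.17 and 7.14 in Fmr1 KO, a log2 difference of 0.10 with an interval of -0.08 to 0.29. The 2 subunits of polymerase alpha that travel with primase had differences of 0.11 for Pola1, on chromosome X, and 0.06 for Pola2. Their FPKM of 2.19 to 2.72 and 3.17 to 3.94 over all libraries were below those of both primase genes.

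Pole, the catalytic subunit of the leading strand polymerase epsilon, had 1.18, 1.35 and 1.55 FPKM in WT and 1.603, 1.61 and 1.63 in Fmr1 KO. The libraries did not overlap and the Fmr1 KO libraries lay close together, but the log2 difference of 0.24 had an interval of -0.11 to 0.58 and was not below an unadjusted p of 0.05. Its partner Pole2 had 1.13, 1.23 and 1.51 FPKM in WT and 1.04, 1.08 and 1.70 in Fmr1 KO, a log2 difference of -0.04. The 3 genes of polymerase delta, which copies the lagging strand, had differences of -0.03 for Pold1, -0.08 for Pold2 and -0.02 for Pold3. Pold2 was the highest of them in each library, at 10.9, 10.5 and 11.0 FPKM in WT and 9.93, 9.84 and 10.9 in Fmr1 KO.

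Pcna encodes the sliding clamp that holds the polymerases on DNA and had 15.04, 11.8 and 11.7 FPKM in WT and 15.2, 12.4 and 13.4 in Fmr1 KO. Replicate 1 was the highest library in each genotype, the groups overlapped, and the log2 difference was 0.09 with an interval of -0.16 to 0.35. The pseudogene Pcna-ps2, a near copy of the transcript, was listed at 25.5 to 28.3 FPKM in WT and 28.9 to 30.3 in Fmr1 KO. Reads may therefore have been divided between Pcna and its copy, and the level of Pcna is uncertain. The clamp loader genes Rfc2, Rfc3, Rfc4 and Rfc5 had log2 differences of -0.02, -0.02, -0.11 and -0.03, all with intervals that include 0. Rfc2 was the most abundant of them in each library, with 18.1, 15.8 and 15.9 FPKM in WT and 16.5, 16.3 and 16.3 in Fmr1 KO. Rfc3 had the lowest mean, with 6.96, 5.51 and 5.13 FPKM in WT and 6.55, 6.01 and 4.76 in Fmr1 KO. Rfc2, Rfc4 and Rfc5 share 15.1, 12.7 and 10.7% of their exonic bases with genes on the opposite strand.

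Lig1 encodes the ligase that joins the fragments of the lagging strand. Lig1 (chromosome 7, 13277175 to 13311426) had 7.67, 7.08 and 7.78 FPKM in WT and 8.50, 8.54 and 9.13 in Fmr1 KO. Every Fmr1 KO library was above every WT library, and the log2 difference was 0.21 with an interval of 0.06 to 0.37, or 1.16-fold (adjusted p = 0.213 in limma). Without Fmr1 KO replicate 3 it was 0.18, Mcm2 was 0.19, and neither was at an unadjusted p below 0.05. Fen1, the nuclease that trims the flaps before ligation, had 4.58, 4.84 and 4.67 FPKM in WT and 5.54, 4.62 and 4.91 in Fmr1 KO, and its log2 difference was 0.09. The subunits of the single-strand binding protein RPA overlapped throughout. Rpa1 had 20.3, 19.0 and 20.5 FPKM in WT and 19.5, 17.8 and 21.5 in Fmr1 KO, with a log2 difference of -0.03, and Rpa2 had 5.60 to 6.76 and 5.60 to 6.84, with 0.01.

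All 5 genes of nucleotide supply had a log2 difference above 0, as did 51.7% of all tested loci. Rrm2 (chromosome 12, 24708254 to 24714146) encodes the subunit of ribonucleotide reductase that is made in S phase, and it had 12.1, 10.02 and 11.99 FPKM in WT and 12.8, 13.1 and 14.4 in Fmr1 KO. The libraries did not overlap, WT replicate 2 was the lowest, and the log2 difference was 0.24 with an interval of 0.05 to 0.44 (adjusted p = 0.256 in limma). Without WT replicate 2 (0.15) or Fmr1 KO replicate 3 (0.19) it lost the unadjusted threshold. Rrm1, the subunit with the active site, had 11.1, 11.1 and 12.6 FPKM in WT and 11.6, 12.1 and 13.2 in Fmr1 KO, a log2 difference of 0.09.

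Tyms, which makes the thymidine nucleotide for DNA, had 1.13, 1.205 and 1.22 FPKM in WT and 1.31, 1.62 and 1.45 in Fmr1 KO. Its libraries did not overlap, yet at this low level the interval of the log2 difference of 0.28 was -0.08 to 0.63. Tk1, the thymidine kinase of the salvage route, varied widely among the WT libraries, with 1.16, 0.810 and 1.97 FPKM, and had 1.91, 1.44 and 1.55 in Fmr1 KO. The interval of its log2 difference was -0.27 to 1.01. Dut, which removes dUTP, had 7.04 to 8.43 FPKM in WT and 7.45 to 8.65 in Fmr1 KO, a log2 difference of 0.07.

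Chaf1a and Chaf1b encode subunits of the chromatin assembly factor CAF-1, which places histones on new DNA, and the difference between these genes was not tested. Chaf1b (chromosome 16, 93883900 to 93906115) had 1.82, 1.73 and 1.27 FPKM in WT and 2.44, 1.92 and 2.74 in Fmr1 KO. The libraries did not overlap, and the log2 difference of 0.53, with an interval of 0.12 to 0.95, was the largest of the 48 genes (1.44-fold, adjusted p = 0.242 in limma). It was 0.38 without WT replicate 3 and 0.50 without Fmr1 KO replicate 1, and in these fits and without Fmr1 KO replicate 3 it lost the unadjusted threshold. Chaf1a had 3.24, 3.58 and 3.23 FPKM in WT and 2.95, 3.87 and 3.24 in Fmr1 KO, a log2 difference of -0.01, and 52.5% of its exonic bases are shared with exons of Ubxn6 on the opposite strand. Uhrf1, which brings the methyltransferase to newly copied DNA, had 4.10, 3.92 and 4.07 FPKM in WT and 5.03, 3.84 and 4.68 in Fmr1 KO, where Fmr1 KO replicate 2 lay below all WT libraries. Dnmt1, the maintenance DNA methyltransferase, which is also made in neurons, had 15.4, 16.2 and 15.6 FPKM in WT and 14.9, 17.6 and 17.7 in Fmr1 KO, and its log2 difference was 0.09.

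Of the 4 E2F genes among the members, E2f2, E2f7 and E2f8 were at or near the minimum, and the value of E2f1 cannot be assigned. E2f1 was listed at 20.5, 16.9 and 15.1 FPKM in WT and 16.8, 16.1 and 16.3 in Fmr1 KO, but its locus in the table is shared with Necab3, a neighbouring gene for a calcium-binding protein, and the FPKM does not separate them. E2f2, an activating factor, had 0.837, 0.526 and 0.596 FPKM in WT and 0.532, 0.736 and 0.779 in Fmr1 KO. E2f7, a repressing factor, had 0.638, 0.673 and 0.659 FPKM in WT and 0.754, 0.731 and 0.714 in Fmr1 KO. The E2f7 libraries did not overlap, but both genes were below the minimum and were not tested. E2f8, also a repressing factor, had 0.917 to 1.63 FPKM in WT and 1.16 to 1.48 in Fmr1 KO, a log2 difference of 0.05.

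Genes of fork protection and repair went both ways. Clspn, which relays the signal of stalled forks, had 1.19, 1.48 and 1.74 FPKM in WT and 1.61, 1.84 and 2.08 in Fmr1 KO, a log2 difference of 0.31 with an interval of -0.08 to 0.71. Brca1, a gene of recombination repair, had 1.23, 1.37 and 1.76 FPKM in WT and 1.54, 1.90 and 1.67 in Fmr1 KO, a difference of 0.22 with an interval of -0.17 to 0.61. For both, WT replicate 3 lay among the Fmr1 KO libraries. Ung, the glycosylase that removes uracil from DNA, had 1.70, 1.79 and 1.61 FPKM in WT and 1.09, 1.43 and 1.44 in Fmr1 KO. It was the single gene with every Fmr1 KO library below every WT library, and its log2 difference of -0.35 had an interval of -0.71 to 0.02 (adjusted p = 0.363 in limma). Tipin, a fork protection protein, had 10.6, 11.2 and 10.4 FPKM in WT and 10.6, 10.6 and 9.89 in Fmr1 KO, a difference of -0.05 with an interval of -0.19 to 0.08.

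Across the libraries the 48 genes did not shift by the same amount. As the deviation of log2(FPKM + 0.1) from each gene's own mean, the median over the genes was -0.04, -0.12 and -0.0002 in WT replicates 1, 2 and 3 and 0.003, 0.06 and 0.08 in Fmr1 KO replicates 1, 2 and 3. WT replicate 3 and Fmr1 KO replicate 1 were thus nearly level. Fmr1 KO replicate 3 was the highest library for 15 genes and WT replicate 2 the lowest for 16. For all tested loci the same median lay between -0.003 and 0.007 in every library. The summed FPKM of all members was 306, 284 and 296 in WT, against 307, 306 and 313 in Fmr1 KO.

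**Figure D4:**
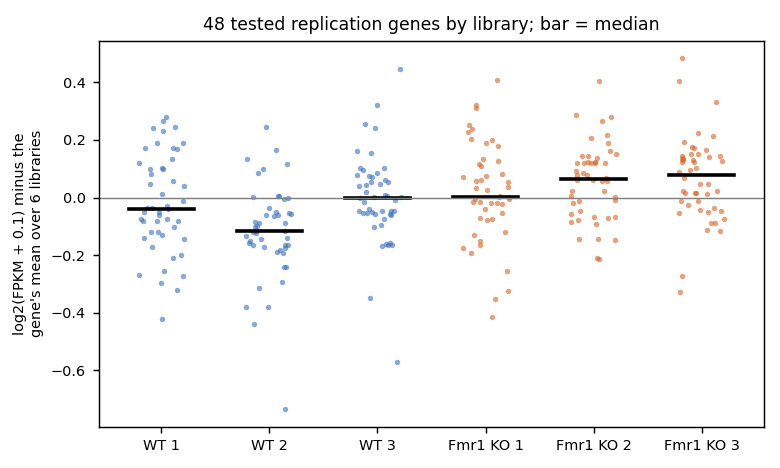
Deviation of each of the 48 tested replication genes from its own mean over the 6 libraries, on log2(FPKM + 0.1), by library; the black bar is the median. WT replicate 2 has the lowest median (-0.12) and Fmr1 KO replicate 3 the highest (0.08), with WT replicate 3 and Fmr1 KO replicate 1 next to each other near 0.

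A further list of 53 replication and S phase genes, of which 51 were tested, had a median log2 difference of 0.06, with 33 above 0 and 18 below. Of all tested loci, 51.7% were above 0. At an unadjusted p below 0.05, 6 (11.8%) were higher and 2 (3.92%) lower in Fmr1 KO, against 6.99% and 7.77% of all loci. None was below an adjusted p of 0.05, which 0.265% of all loci were. Ccna2, the cyclin of S phase and G2, had 9.41, 8.83 and 8.95 FPKM in WT and 11.1, 10.7 and 10.7 in Fmr1 KO, a log2 difference of 0.26 (adjusted p = 0.108 in limma). The largest differences among those higher were 0.53 for Cdca5, which holds sister chromatids together, 0.47 for the nuclease gene Exo1, which passed the minimum only through Fmr1 KO, and 0.31 for the recombination gene Rad51ap1. The smallest difference among the 6 was 0.21, for Donson, which protects forks. Ccne1, the cyclin of the step into S phase, was among the lower genes, at -0.26.

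Genes of mitosis, which follows S phase in dividing cells, gave a different count. Of 25 listed genes 24 were tested, all 24 had a log2 difference above 0, against 51.7% of all loci, and the median was 0.25. At an unadjusted p below 0.05, 10 were higher, where 6.99% of all loci were, and none was lower, where 7.77% were. None was below an adjusted p of 0.05, which 0.265% of all loci were. The count was 6 without Fmr1 KO replicate 2, where 4.6% of all loci were higher, and 0 after rescaling without Bc1, where 1.07% were. The largest differences among these 10 were 0.44 for Kif23, 0.43 for Bub1 and 0.35 for Cdc20, and the smallest were 0.25 for Ccnb2, Prc1 and Pbk. Mki67, a marker of cycling cells, had 6.43, 8.05 and 8.42 FPKM in WT and 7.94, 10.3 and 10.4 in Fmr1 KO, where Fmr1 KO replicate 1 overlapped WT. Whether the mitosis and replication lists differed from each other was not tested, and both were chosen with earlier results of these data known.

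**Figure D5:**
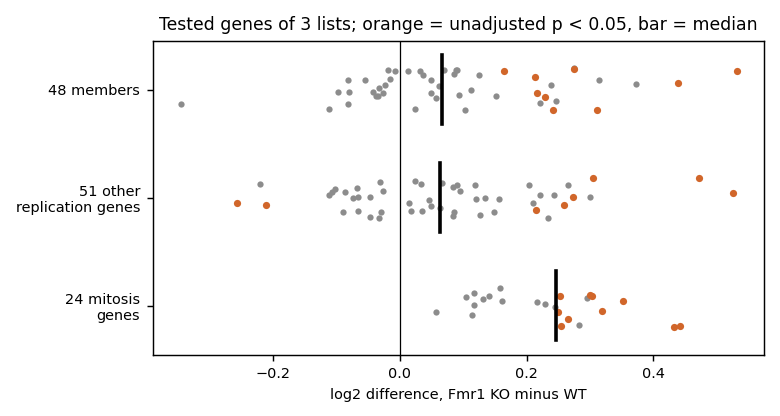
Log2 differences (Fmr1 KO minus WT) of the 48 tested replication genes, 51 other replication genes and 24 mitosis genes; orange marks an unadjusted p below 0.05 and the black bar the median. The medians are 0.07, 0.06 and 0.25, and every mitosis gene lies above 0.

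RNA of whole cultures does not tell fewer cells of a type from less RNA per cell, so markers of the cell types in the cultures are given beside these results. The listed markers of excitatory neurons, inhibitory neurons, neurons in general, astrocytes and oligodendrocyte precursors all had a mean above 1 FPKM. All marker counts use an unadjusted p below 0.05, by which 6.99% of all tested loci were higher and 7.77% lower. Of the 8 precursor markers, Pdgfra and Olig2 were higher in Fmr1 KO and none was lower. The log2 difference was above 0 in 6 of them and below 0 in 2, Gpr17 (-0.20) and C1ql1 (-0.10). The list summed to 446 to 514 FPKM in WT and 495 to 540 in Fmr1 KO. Of 10 astrocyte markers none was higher and 2, Gja1 and S100b, were lower, with sums of 1769 to 2083 in WT and 1831 to 2030 in Fmr1 KO. Of 7 tested neural progenitor markers, Nes and Fabp7 were higher and Hes5 was lower, and the 8 listed genes summed to 729 to 843 in WT and 931 to 973 in Fmr1 KO. Fabp7, which astrocytes and precursors also make, supplied most of that sum, with 533 to 628 FPKM in WT and 731 to 763 in Fmr1 KO. Of 6 immature neuron markers, Dcx, Sox11 and Sox4 were higher, as was Igfbpl1, which reached the minimum only through Fmr1 KO, with sums of 337 to 369 in WT and 368 to 406 in Fmr1 KO.

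Among 8 excitatory neuron markers Camk2a was higher and Prox1 lower, and among 6 markers of neurons in general Map2 was higher. Among 8 inhibitory markers Dlx1 and Dlx2 were higher and Npy lower, and 5 of the 8 had a log2 difference below 0. By the same rule 6.99% of all tested loci were higher and 7.77% lower. Microglial markers were near 0, and Aif1, which has 4 loci in the table, and Tmem119 were listed at 0 throughout. The 10 genes summed to 5.28 to 7.41 FPKM in WT and 1.06 to 3.05 in Fmr1 KO. C1qa, C1qb and C1qc were lower in Fmr1 KO but reached the minimum through WT alone. They were thus tested only because they were high in WT, and no weight is given to their direction. The 7 endothelial genes summed to 2.98 to 3.39 in WT and 2.17 to 2.72 in Fmr1 KO, with Cldn5 listed at 0, and the 1 tested gene passed in neither direction. The 8 genes of fibroblasts and mural cells summed to 47.7 to 52.3 and 39.1 to 47.1, and of 4 tested 1 was lower, Dcn. The 7 genes of mature oligodendrocytes summed to 44.3 to 50.6 and 37.5 to 46.5, and none of the 3 tested passed. None of these markers was below an adjusted p of 0.05 in limma, and the part of any of these cells in the values of the replication genes was not tested.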

How the data were processed

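The authors removed adapters with Fastx Clipper, trimmed reads with sickle, and used TopHat2 (GRCm38), Cufflinks and Cuffdiff. The sources used here give no versions, annotation, strandedness or scaling. The deposited values used are FPKM per library. The group FPKM, fold changes, p-values and q-values of the authors' own comparison were not used. Depth is unknown and counting intervals could not be formed. The FPKM of all loci summed to 1803679 to 2303083 per library, of which Bc1 made up 73.7 to 80.6%.

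Rows of 1 locus were used once. limma 3.58.1 in R 4.3.3, with a mean-variance trend and genotype as the only term, tested log2(FPKM + 0.1), two-sided, and was tested on simulated data. All members may be named. Of the further replication and mitosis genes, the text names those at an adjusted p below 0.05 and the 3 highest and 3 lowest at an unadjusted p below 0.05. Mki67, Pold4, Kif11, Pcna-ps2 and the markers named outside this rule were chosen after their values were seen, as was Ccna2. A gene that this rule would name is not reported here. The members and lists were chosen with earlier results of these data known. Exon overlap came from GENCODE M21. The alternatives are given with their effects further on.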

Additional observations from a re-analysis of the deposited data

How the results depend on the processing

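The direction of the 9 genes at an unadjusted p below 0.05 held in all alternatives that tested them, and none of the 9 stayed below that threshold in every one of them. No alternative put a member below an adjusted p of 0.05. With totals equal without Bc1, which range from 411860 to 541226 FPKM as deposited, 1 member, 1 further replication gene and 0 mitosis genes were at an unadjusted p below 0.05, and the median standard error of the members was 0.18 in place of 0.10. Of all loci, 1.07% were higher and 2.44% lower after that rescaling. With a minimum of 5 FPKM, which left 26 members, 7 members, 4 further replication genes and 6 mitosis genes were at an unadjusted p below 0.05. There, 8.05% of all loci were higher and 7.77% lower. Without the trend, 11 members were higher and Ung passed as 1 lower gene, against 6.53% and 7.46% of all loci. With 1 library left out, 2 to 10 members were higher and 0 lower, no member was below an adjusted p of 0.05, the members' median was 0.04 to 0.11, and 3 to 8 further replication genes and 6 to 12 mitosis genes were below an unadjusted p of 0.05. In these fits, 4.6 to 7.68% of all loci were higher and 5.48 to 7.98% lower. The lowest member count came without Fmr1 KO replicate 3, and 6 members passed without WT replicate 2. The cause of these changes was not tested. Of the 39 other tested members, 19 changed sign under at least 1 alternative. Pseudocounts of 1 and 0.01, no minimum and centring of each library gave 9 members each, as did leaving out Chaf1a, E2f1, Gins1, Gins2 and Pcna, which was chosen after seeing the data. Of all loci, 4.43% were higher with no minimum and 6.61 to 7.0% in the rest of these fits. With the replicate number as a block there were also 9, where 9.39% of all loci were higher and 9.33% lower. The lowest adjusted p of a member in limma was then 0.090, and the members' median standard error was 0.09. Deviations from the group means correlated at 0.24, 0.06 and 0.08 in libraries with the same number and at -0.15 to 0.08 in the others. WT replicate 1 had 0.24 with Fmr1 KO replicate 1, against -0.12 and -0.13 with Fmr1 KO replicates 2 and 3. The main fit did not pair libraries by number, and whether the numbers pair them is not known.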
